A study of Bos taurus with 6 samples.

Results

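DGAT1 and DGAT2 are the pair of enzymes that carry out the last step of triglyceride synthesis, and their reads were followed here through the longissimus dorsi, a long back muscle, of Hanwoo (Korean cattle). They were chosen by identifier, as the rows ENSBTAG00000026356 (DGAT1) and ENSBTAG00000001154 (DGAT2), and make up 2 of the 24616 genes counted. Poly(A) RNA was sequenced from 6 males with 1 library per animal, 3 bulls (intact males) and 3 steers (castrated males). Bulls 20, 22 and 23 were all 746 days old, whereas the steers were 996 (Steer 439), 950 (Steer 456) and 930 days old (Steer 458). The steers were thus all older than the bulls, and an effect of castration and one of age cannot be told apart here. The labels give neither the age at castration nor the feeding of the animals.

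Triglycerides are built on a glycerol backbone by the stepwise addition of fatty acids, and a DGAT enzyme (diacylglycerol O-acyltransferase) joins the last fatty acid to diacylglycerol. DGAT1 and DGAT2 catalyse the same reaction but belong to unrelated protein families. DGAT1 is a multi-pass membrane protein of the endoplasmic reticulum, related to the enzymes that esterify cholesterol, and is associated with the re-esterification of fatty acids taken up by the cell. DGAT2 belongs to a family with the monoacylglycerol acyltransferases, is found at the endoplasmic reticulum and at lipid droplets, and is associated with fatty acids newly made in the cell. In beef cattle, the fat tissue lying between the fibres and fibre bundles of this muscle is seen as marbling.

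Library totals over genes ran from 17027226 in Steer 456 to 27490776 in Steer 458. Levels are given as CPM, the reads of a gene per 1000000 gene counts of its library, and their intervals are exact 95% Poisson intervals, which cover counting error only. Both genes were well covered, with between 205 and 571 reads per library for DGAT1 and between 680 and 6663 for DGAT2, and both passed the filter on low counts. The files pair no identifier with a gene name, so the other genes of triglyceride synthesis, and marker genes of muscle fibres, fat cells and other cell types, could not be matched. The labelled tissue was therefore not checked against its markers. Because whole muscle was sequenced, a change in the number of cells of one type and a change in RNA per cell cannot be told apart.

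DGAT2 had more reads in every steer than in any bull. In the bulls its level was 31.3 CPM in Bull 20 (95% interval 29.0 to 33.7), 42.6 CPM in Bull 22 (39.7 to 45.6) and 34.9 CPM in Bull 23 (32.4 to 37.7). Steer 439 had 106 CPM (102 to 110), Steer 456 had 391 CPM (382 to 401) and Steer 458 had 61.1 CPM (58.3 to 64.1). The bulls lay within 1.36-fold of each other. The steers lay farther apart. Steer 456 had 6.40 times the level of Steer 458 and 3.69 times that of Steer 439, the next highest of the 6 animals. The lowest steer was 1.43 times the highest bull, so the groups did not overlap, and no interval of a steer reached that of a bull. On this scale the groups did not overlap in 30.6% of the genes that passed the filter, with 10.8% lower in bulls. In order of their age, from the youngest to the oldest, the steers had 61.1, 391 and 106 CPM. A relation of the level to age was not tested.

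The group means of DGAT2 were 36.3 ± 5.78 CPM in bulls and 186 ± 179 CPM in steers (SD, n = 3 each), 5.13-fold apart (exact 2-sided permutation p = 0.1, the smallest that 3 animals against 3 can give). The medians, 34.9 and 106 CPM, were 3.03-fold apart. In a fit over all genes the level of DGAT2 was 5.22-fold higher in steers (95% interval 2.06 to 13.2), which is a log2 fold change of -2.38 ± 0.58 (SE), coded bull minus steer. This did not pass the threshold of 0.05 (edgeR adjusted p = 0.0637 by Benjamini-Hochberg over 12769 tested genes, unadjusted p = 0.00329). In the same fit 4.1% of the tested genes passed, 524 in all, of which 263 (2.06%) were lower and 261 (2.04%) higher in bulls. With library size alone in place of the TMM scaling factors, 124 were lower and 247 higher.

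The call on DGAT2 depended on the animals included and on the test used. Without Steer 456 the mean of the other steers was 83.6 CPM. The fitted difference shrank to 2.50-fold (95% interval 1.77 to 3.54) and its SE from 0.58 to 0.22, and DGAT2 passed (edgeR adjusted p = 0.0145). In that fit 7.77% of the tested genes passed. DGAT2 also passed in DESeq2, at a log2 fold change of -2.42 (adjusted p = 0.000264), where 11.8% of the tested genes did. It passed in limma voom with sample weights per group, at a log2 fold change of -2.04 (adjusted p = 0.0431), where 3.62% did. Without these weights limma voom gave the same log2 fold change, -2.04, and DGAT2 did not pass (adjusted p = 0.0760). Nor did it pass in the edgeR fits of all animals with other scaling factors or filters, with adjusted p between 0.0664 and 0.133. Without Steer 439 or Steer 458 the differences were 6.52-fold and 7.06-fold, and DGAT2 did not pass (edgeR adjusted p = 0.0553 and 0.0734). In these fits 7.67% and 0.591% of the tested genes passed. It did not pass without any one of the bulls either, with edgeR adjusted p between 0.180 and 0.258 and differences between 5.07-fold and 5.86-fold. Few genes passed there at all, 0.0769% without Bull 20, 0.0531% without Bull 22 and 0.0532% without Bull 23.

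DGAT1 showed no such separation. Its level was 16.4 CPM in Bull 20 (95% interval 14.7 to 18.2), 21.5 CPM in Bull 22 (19.5 to 23.7) and 29.3 CPM in Bull 23 (26.9 to 31.8). Steer 439 had 22.4 CPM (20.6 to 24.4), Steer 456 had 12.0 CPM (10.4 to 13.8) and Steer 458 had 15.4 CPM (14.0 to 17.0). From the highest to the lowest, the order was Bull 23, Steer 439, Bull 22, Bull 20, Steer 458 and Steer 456. The groups overlapped, and the intervals of Steer 439 and Bull 22, of Bull 20 and Steer 458 overlapped as well, so counting error alone does not set these neighbours apart. With TMM scaling Steer 458 came to lie above Bull 20, at 17.4 against 16.5 CPM, while Bull 23 remained the highest library and Steer 456 the lowest.

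The group means of DGAT1 were 22.4 ± 6.50 CPM in bulls and 16.6 ± 5.30 CPM in steers (SD, n = 3 each; exact 2-sided permutation p = 0.3). The mean of the bulls was 1.35 times that of the steers, a difference of about the size of the SD within each group. The fit over all genes gave a log2 fold change of 0.33 ± 0.29 (SE), with an edgeR adjusted p of 0.555 and a 95% interval from -0.33 to 0.98. That interval holds no difference, and it also holds levels nearly 2-fold higher in bulls, so the data do not show that the groups had the same level. Without Bull 23 or without Steer 456, the log2 fold change of DGAT1 was 0.11 in each case.

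**Figure D1:**
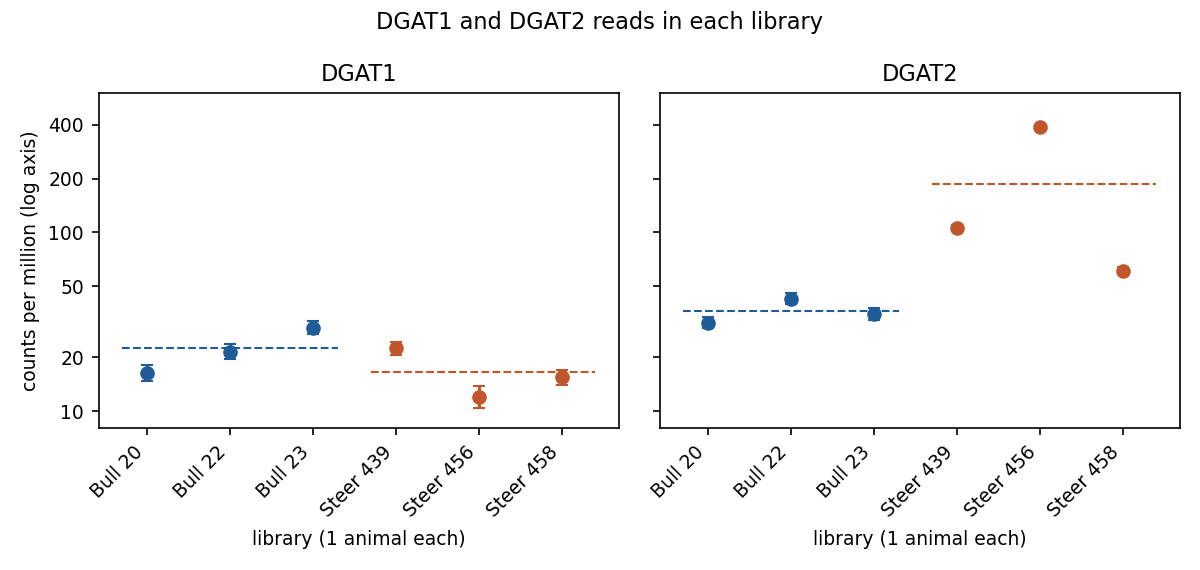
Level of DGAT1 (left) and DGAT2 (right) in CPM, on a log axis, in each of the 6 libraries (1 animal each). Points are single libraries with exact 95% Poisson intervals, and dashed lines are group means (blue bulls, orange steers). The 3 steers lie above the 3 bulls for DGAT2, from 61.1 to 391 CPM against 31.3 to 42.6 CPM, while the groups overlap for DGAT1.

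Both genes together showed how far the animals differed in the balance of the enzymes' reads. DGAT2 made up 65.6% of the reads of both genes in Bull 20 (95% Wilson interval 62.7 to 68.5), 66.4% in Bull 22 (63.7 to 69.0) and 54.4% in Bull 23 (51.6 to 57.1). For Steer 439 the share was 82.5% (81.2 to 83.8), and it was 97.0% in Steer 456 (96.6 to 97.4) and 79.9% in Steer 458 (78.1 to 81.5). Every steer thus had a larger share than every bull, and Bull 23, with the most DGAT1, had the smallest. DGAT2 alone already separated the groups, so the share repeats that separation in part. How often other pairs of genes separate them was not counted. This share is unaffected by library size and by scaling factors, since both genes are counted in the same library. It is also a share of reads and not of transcripts: the transcript lengths of the annotation used for counting were not at hand, so it does not say which enzyme had more mRNA.

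Expressed as a ratio, there were between 1.19 and 1.98 reads of DGAT2 per read of DGAT1 in the bulls. Steer 458 had 3.96 reads of DGAT2 per read of DGAT1, Steer 439 had 4.72 and Steer 456 had 32.4. Gene length cancels when the ratio is compared between animals. The mean log2 ratio was 0.72 ± 0.41 in bulls and 3.08 ± 1.68 in steers (SD, n = 3 each), a difference of -2.36, bull minus steer. On the linear scale this is 5.13-fold (exact 2-sided permutation p = 0.1, the smallest possible). This test compares the changes of both genes directly, and at 3 animals a group it cannot reach 0.05 whatever the values. Without Steer 456 the difference of the log2 ratio was -1.39 (exact 2-sided permutation p = 0.2). The test used doubles the smaller tail, and in that form it cannot go lower at 3 against 2. Leaving out an animal cannot make separate groups overlap, so the absence of overlap among the remaining animals, in the ratio or in DGAT2 alone, adds nothing. Steer 456 had the highest ratio from both sides, with the most DGAT2 reads and the fewest DGAT1 reads, in CPM, of the 6 libraries.

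**Figure D2:**
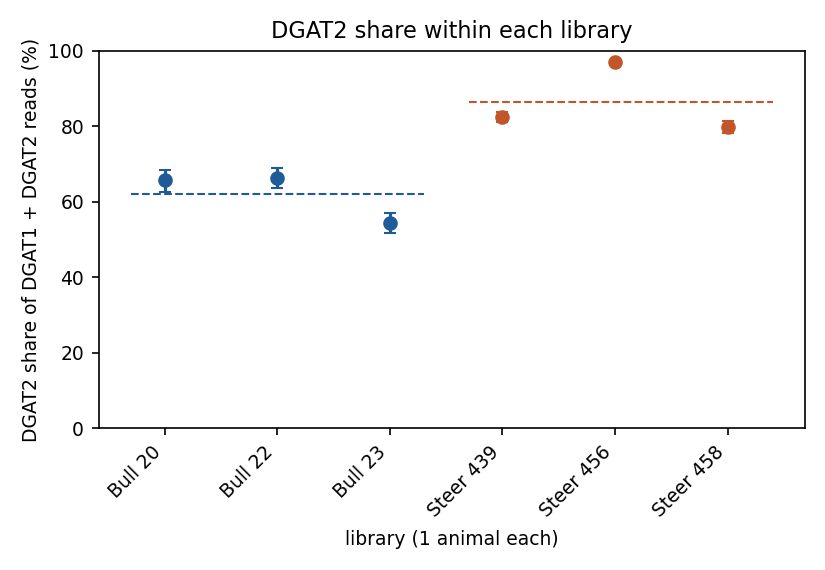
Share of DGAT2 in the summed reads of DGAT1 and DGAT2 in each library, in percent. Points are single libraries with 95% Wilson intervals, and dashed lines are group means (blue bulls, orange steers). The bulls lie between 54.4% and 66.4% and the steers between 79.9% and 97.0%.

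Against all tested genes, the fitted difference of DGAT2 was large and its spread among steers was large as well. A larger absolute log2 fold change was fitted for 176 of the 12769 genes, and a smaller p for 658. The median absolute log2 fold change of all tested genes was 0.34, close to the 0.33 of DGAT1. Of the genes with log2 fold changes at or under that of DGAT2, 76 passed the test and 46, DGAT2 among them, did not. The SD of log2 CPM of DGAT2 was 0.22 in bulls and 1.27 in steers, against medians of 0.18 and 0.39 over all tested genes. Of the tested genes, 61.0% had a smaller SD than DGAT2 in bulls and 96.3% in steers. For DGAT1 the SDs were 0.36 in bulls and 0.49 in steers, so that its spread was more alike in both groups, and 80.4% of the tested genes had a smaller SD in bulls.

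The absence of overlap seen for DGAT2 was common in these libraries. On TMM-scaled CPM the groups did not overlap in 29.6% of the tested genes, of which 1785 genes (14% of those tested) were lower in bulls and 1991 higher. On CPM by library size alone it was 30.6%, with 1385 genes (10.8%) lower and 2522 higher. The separation of DGAT2 from bull to steer is therefore not rare by itself. Steer 456 stood at least 2-fold above all other libraries in 5.15% of the tested genes on TMM-scaled CPM. DGAT2 was one of these 657 genes, at 3.50 times the next library on that scale, and 112 genes had a larger step. Steer 456 was also the shallowest library. Its share of counted alignments not assigned to a gene was the highest, 39.9%, followed by 39.7% in Bull 22. The lowest share was 29.3%, in Steer 439. The part of depth in the level of DGAT2 was not tested.

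**Figure D3:**
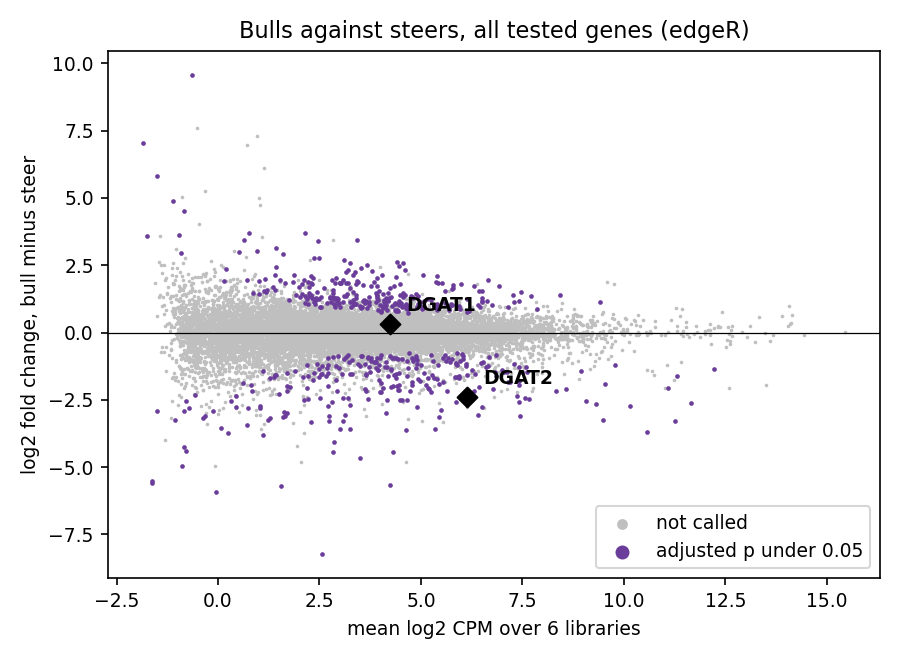
Log2 fold change (bull minus steer, edgeR) against the mean log2 CPM over the 6 libraries for the 12769 tested genes. Purple points passed an adjusted p of 0.05, grey points did not, and black diamonds are DGAT1 and DGAT2. DGAT2 lies at -2.38 and DGAT1 at 0.33, and neither passed.

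The direction of both genes held in each of the 14 other fits. These used other scaling factors, other filters, other tests or 5 of the 6 animals. For DGAT2 every steer lay above every bull, so leaving out an animal does not test its direction. The fits of all animals share the same 6 libraries and are no separate check either. The log2 fold change of DGAT2 lay between -2.82 and -1.32 and passed in 3 of the 14 fits. That of DGAT1 lay between 0.11 and 0.56 and passed in 0, with adjusted p between 0.260 and 0.903. Its unadjusted p was 0.288 with edgeR and 0.339 with DESeq2.

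**Figure D4:**
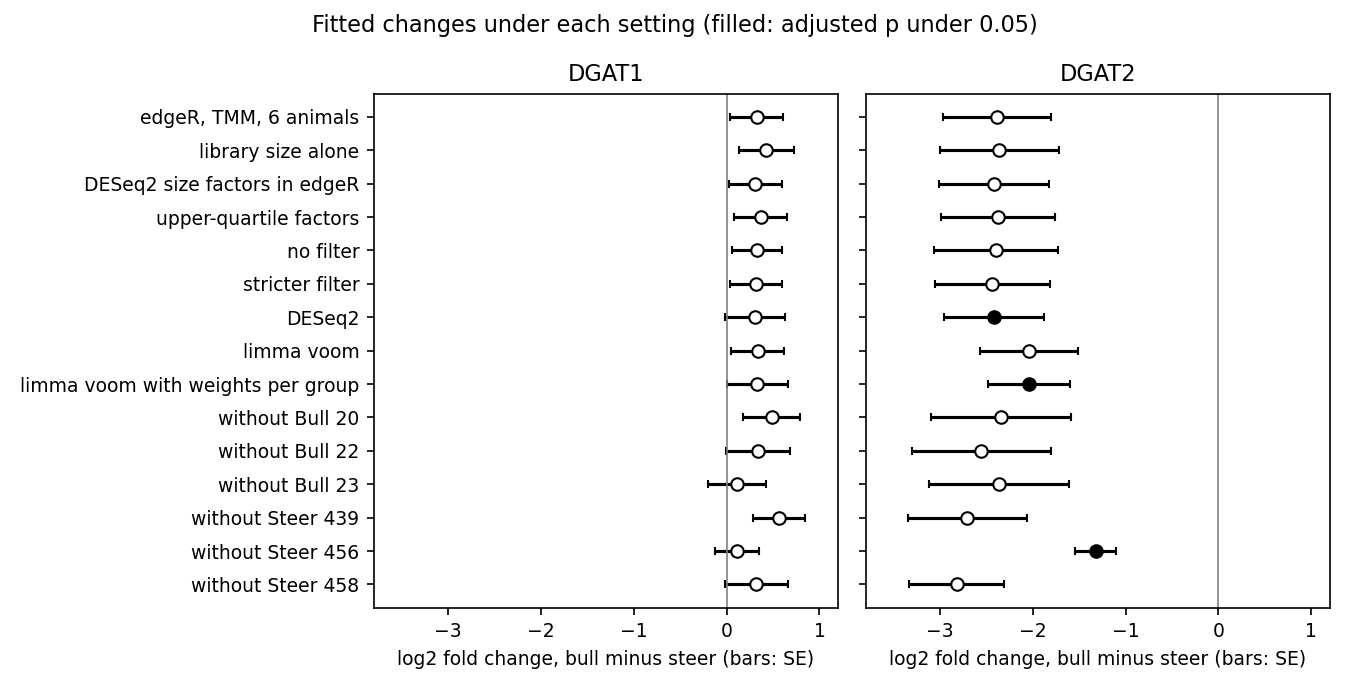
Log2 fold change (bull minus steer) of DGAT1 (left) and DGAT2 (right) in the fit of all 6 animals and in 14 alternatives. Points are fitted values with their SE, and filled points passed an adjusted p of 0.05. All points of DGAT2 lie left of 0, the one without Steer 456 nearest to it at -1.32, and all points of DGAT1 lie right of 0, between 0.11 and 0.56.

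The genes with the profiles most like those of the enzymes differed between them. Likeness was taken as Pearson's r of log2 CPM over the 6 libraries, among 8643 genes with a mean of at least 5 CPM, and is given as a description. For DGAT2, whose values separate the groups, r also reflects the difference between bulls and steers. Its nearest gene was ENSBTAG00000010303 (r = 0.999), with 4.97, 5.88 and 5.18 CPM in Bulls 20, 22 and 23 and 9.70, 19.7 and 6.98 CPM in Steers 439, 456 and 458. This gene follows the same order among the steers as DGAT2, over a smaller range. It was followed by ENSBTAG00000013527 (r = 0.997), with 13.3 ± 0.819 CPM in bulls and 30.1 ± 17.1 CPM in steers (SD, n = 3 each). Neither passed the test (log2 fold change -1.23 in both, edgeR adjusted p = 0.0793 and 0.0777). Without Steers 456 and 439, the libraries farthest from the median of DGAT2, r was 0.995 for both genes over 4 libraries. These are the bulls and Steer 458, which lies apart from them. The genes were also picked on the same values, so this is no separate check of the likeness. In all, 384 of the compared genes had an r above 0.9 with DGAT2.

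For DGAT1 the number with an r above 0.9 was 100. Such numbers were not counted for other genes, so neither can be called high or low. Its nearest gene was ENSBTAG00000009281 (r = 0.985), with 12.9, 17.1 and 21.2 CPM in Bulls 20, 22 and 23 and 16.8, 8.16 and 11.9 CPM in Steers 439, 456 and 458. The second, ENSBTAG00000001021 (r = 0.977), had 14.2 ± 7.13 CPM in bulls and 7.98 ± 7.51 CPM in steers (SD, n = 3 each), and ranged from 2.35 CPM in Steer 456 to 21.9 CPM in Bull 23. Neither passed the test (edgeR adjusted p = 0.525 and 0.566). Both share with DGAT1 the highest level in Bull 23 and the lowest in Steer 456, which follows in part from their choice by r. Without Steer 456 and Bull 23, r was 0.988 and 0.917 over 4 libraries, which are among those the genes were picked on.

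**Figure D5:**
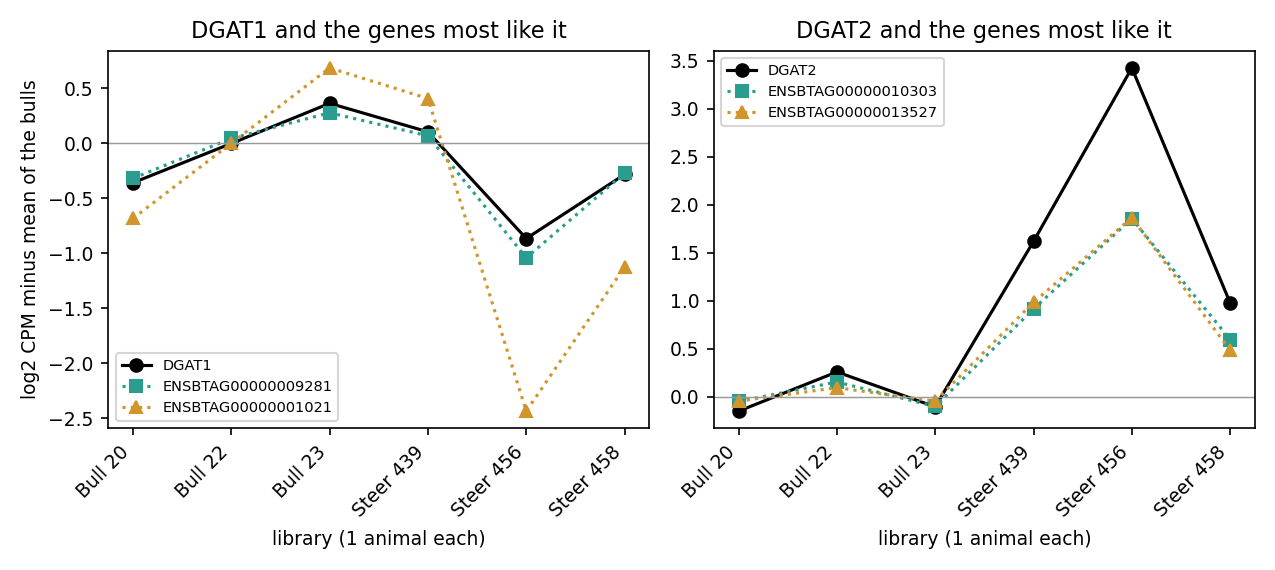
Log2 CPM (TMM-scaled, prior count 2) relative to the mean of the bulls in each library, for DGAT1 (left) and DGAT2 (right) in black and for the 2 genes most like each in colour. Lines only join the points of a gene, since libraries have no order. DGAT2 and the genes like it have their highest value in Steer 456, where DGAT1 and the genes like it have their lowest. The genes were picked for their likeness over these same libraries, so shared extremes follow in part from the choice.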

How the data were processed

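The submitters' processing notes name the genome build UMD3.1 and the tools TopHat2 2.0.2, HTSeq 0.5.3p3 and FastQC. The authors deposited raw read counts per Ensembl gene ID, 1 file per animal, with no normalization. The annotation release, the strand setting and HTSeq's mode for overlaps were not given in the sources used here. Per the files' summary rows, reads aligned to more than one place were not assigned to a gene. The 5 HTSeq summary rows, which held 29.3% to 39.9% of all reads or alignments counted in a file, entered neither library sizes nor tests. In the RefSeq gene table supplied (assembly ARS-UCD2.0), 1 gene, HSF1, overlaps the span of DGAT1 and 0 overlap that of DGAT2. Where the same holds in the authors' annotation, reads over both genes may be missing from the count of DGAT1, or, without strand, reads of one may be counted for the other. That reference lists 37063 genes, of which 0 carry an Ensembl ID, so the 8 pathway lists and 6 marker lists fixed by symbol could not be tested. The names of the 2 genes come from the identifiers they were chosen by. No sequence of the genes was at hand.

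All 6 libraries entered 1 edgeR 4.0.16 quasi-likelihood fit (R 4.3.3) with TMM factors, filterByExpr and Benjamini-Hochberg adjustment over the 12769 genes kept, with the group as the only term. The SE was derived from the log2 fold change and its F statistic, and the 95% interval uses the t distribution of the fit. The log2 ratio of the genes' counts used an offset of 0.5 counts. Single values were compared with exact 2-sided permutation tests (SciPy 1.17.1). Alternatives were other scaling factors, filters, DESeq2 1.42.0, limma 3.58.1 (voom) and leaving out each animal. The fits were tested on simulated counts with the same spread between animals for all genes and both groups. Unequal spread of the groups, as seen for DGAT2, was not covered. Named genes were the 2 enzymes and, for each, the 2 genes with the highest Pearson r among those with a mean of at least 5 CPM. The genes, lists and tests were chosen with earlier results of these data known. The titles number the animals separately, so each library was counted as 1 replicate.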

Additional observations from a re-analysis of the deposited data

How the results depend on the processing

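The 524 genes called between bulls and steers became 1507 with DESeq2 and between 7 and 1019 with each animal left out, and lay within 1.5 times in the other 7 alternatives. For DGAT2 the log2 fold change (bull minus steer) of -2.38 passed with DESeq2 (-2.42) and with limma voom weighted per group (-2.04). It ranged from -2.82 to -1.32 with each animal left out and passed without Steer 456, the value nearest 0. In the 11 alternatives in which it did not pass, the direction was the same. With every steer above every bull, this sameness is no separate support. DGAT1 passed in none of 14 alternatives, from 0.11 to 0.56. The difference of the log2 ratio of DGAT2 to DGAT1 was -2.36, and -1.31 by group medians. It was between -2.91 and -1.39 with each animal left out, and other offsets or log2 CPM left it between -2.36 and -2.35. No paired analysis was possible because bulls and steers share no animal number. With 3 animals a group an exact test of a single value cannot go below 0.1, and counting error, at most 13.9% of a level at 205 reads, was smaller than the spread between animals in both genes. The causes of these changes were not tested.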
